A study of Saccharomyces cerevisiae with 10 samples.

Results

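The genes examined were SET5, SET2, DOT1, SET3, SET4, SET6 and JHD2 of Saccharomyces cerevisiae, that is, the histone methyltransferases and relatives other than SET1 together with a histone demethylase. They were taken by their systematic names, YHR207C (SET5), YJL168C (SET2), YDR440W (DOT1), YKR029C (SET3), YJL105W (SET4), YPL165C (SET6) and YJR119C (JHD2), and all 7 were found among the 6663 features of the table. Polyadenylated RNA had been sequenced from 5 strains of the haploid yeast BY4741, namely set1∆, which lacks SET1, set5∆, which lacks SET5, set1∆ set5∆, which lacks both, SET5 Y402A, whose Set5 protein carries that substitution, and the wild type (WT). All strains were grown in rich glucose medium (YPD) at 30 °C to mid-log phase. Each strain had 2 biological replicates per the labels, 10 libraries in all, and the table gives 1 value per strain. The labels do not say how the alleles were built or whether each strain is 1 clone.

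Cells add methyl groups to lysines of histones with SET-domain enzymes and with Dot1, whose fold is different. Set1, in the complex COMPASS, methylates H3K4, Set2 methylates H3K36 on genes that RNA polymerase II is transcribing, Dot1 methylates H3K79 and takes part in telomeric silencing, and Set5 methylates lysines of histone H4. Set3 and Set4 are paralogues with a SET domain and a PHD finger. Set3 is the namesake of a histone deacetylase complex that binds methylated H3K4, and no methyltransferase activity is established for Set3 or Set4 in textbook accounts. Set4 is scarce in aerated cultures and is known from studies of low oxygen and stress. Set6 is a little-studied SET-domain protein. Jhd2 is a JmjC-domain enzyme that removes methyl groups from H3K4, so it opposes Set1.

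The values were taken as FPKM, although no header says so, a density of sequenced fragments corrected for transcript length and library size, so levels of different genes can be compared per length. Because replicates were combined before deposit, their spread is not known, and the differences below are described without any test. Each value is an average over a culture, in which fewer cells with a transcript and less transcript per cell cannot be told apart. The sequencing depth is unknown. Ratios were computed as log2 of (FPKM + 1), the named strain over its comparator, over the 6541 features whose mean reached 1 FPKM, and all 7 genes passed that filter. SET1, a check of the labels, stood at 0.0328 FPKM in set1∆ and 0.0324 in set1∆ set5∆, against 24.3 in WT. The MATa genes MFA1, MFA2, STE2, STE6 and BAR1 were at 65.4 to 103882 FPKM in every strain, whereas the MATα genes MF(ALPHA)1 and STE3 were at most 8.83 FPKM and MF(ALPHA)2 was at 23.4 to 32.9 FPKM. BY4741 is a MATa strain. Of the genes deleted in it, LEU2 and MET17 were below 1 FPKM in every strain, and no feature was listed under the systematic name of URA3. HIS3 was at 134 FPKM in set1∆ and 132 in set1∆ set5∆, and at 76.8 to 84.9 FPKM in the strains with SET1.

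In WT the genes ranked SET5, SET2, DOT1, SET3, SET6, SET4 and JHD2 from high to low FPKM. SET5 at 34.6, SET2 at 34.0 and DOT1 at 28.5 FPKM lay near the middle of the table, with 43.3%, 42.9% and 37.3% of features below them. SET3 at 18.8 FPKM exceeded 25.2% of features. SET6 at 11.8, SET4 at 9.40 and JHD2 at 7.86 FPKM exceeded 15.2%, 11.99% and 10.1%, so the demethylase was the scarcest of the 7 transcripts. Among the 6 genes that no strain lacks, the order SET2, DOT1, SET3, SET6 held in all 5 strains. The remaining pair exchanged places, since JHD2 stood above SET4 in each of the 4 mutants and below it in WT.

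**Figure D1:**
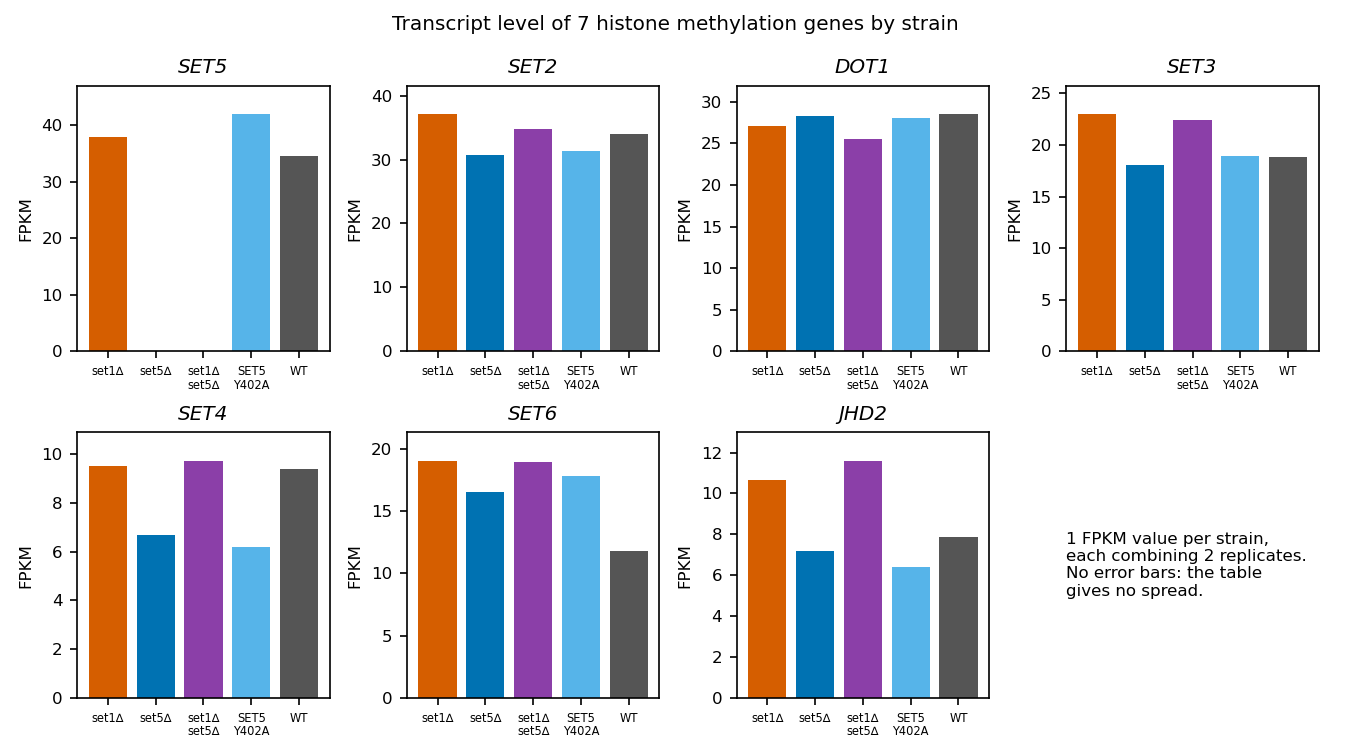
FPKM of the 7 genes (vertical axis, starting at 0) in set1∆, set5∆, set1∆ set5∆, SET5 Y402A and WT, 1 bar per strain and no error bars because the table holds 1 value per strain. SET5 is near 0 in the strains that lack it, JHD2 is highest in the strains that lack SET1, SET4 is lowest in set5∆ and SET5 Y402A, and SET6 is lowest in WT.

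SET5, the gene that was itself deleted or altered, followed the labels. It stood at 0.0545 FPKM in set5∆ and 0.0167 FPKM in set1∆ set5∆, against 34.6 FPKM in WT. In the strains that keep the gene it stood at 37.8 FPKM in set1∆ and 41.8 FPKM in SET5 Y402A, against 34.6 FPKM in WT. The substitution strain therefore held the highest SET5 level of the 3, with a log2 ratio to WT of 0.27, and 12.2% of all features had a higher ratio in that comparison. The log2 ratio of set1∆ to WT was 0.13.

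The genes on either side of SET5 were read as well. BAT1, the mitochondrial branched-chain aminotransferase gene, starts divergently from SET5, and SKN7, a regulator of the oxidative stress response, ends toward it. BAT1 stood at 549 FPKM in set1∆, 996 in set5∆, 584 in set1∆ set5∆ and 806 in SET5 Y402A, against 719 in WT. It was highest in set5∆, with a log2 ratio of 0.47 in set5∆ over WT and of 0.09 in set1∆ set5∆ over set1∆, and set1∆ alone had -0.39 to WT. SKN7 spanned only 53.8 to 66.4 FPKM over the 5 strains, with log2 ratios of 0.17 in set5∆ over WT and 0.04 in set1∆ set5∆ over set1∆.

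None of the other 6 genes reached a 2-fold difference in any of the 7 direct comparisons between strains. In set1∆ against WT, 0 of 7 genes with the gene present in both strains were past 2-fold, where 2.37% of all features were higher by at least 2-fold and 0.489% lower. The counts were 0 of 6 in set5∆ against WT, where 0.994% of features were higher and 0.581% lower, and 0 of 7 in SET5 Y402A against WT, where 1.83% were higher and 0.321% lower. They were also 0 of 6 in set1∆ set5∆ against WT (2.83% higher, 0.52% lower), against set1∆ (0.566% higher, 0.352% lower) and against set5∆ (2.86% higher, 1.07% lower). SET5 Y402A against set5∆ likewise had 0 of 6 (0.826% higher, 0.321% lower). Beside backgrounds this low, a count of 0 among so few genes says nothing particular about them, and the smaller differences below have no replicate check.

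Beneath that line the genes varied unequally. The span of log2(FPKM + 1) over the 5 strains was 0.15 for DOT1, 0.26 for SET2, 0.33 for SET3, 0.58 for SET4, 0.64 for SET6 and 0.76 for JHD2, beside a median of 0.35 over all features tested. A larger span was found for 88.1% of features in the case of DOT1 and for 13.6% in the case of JHD2. The 3 genes with the widest spans were also the 3 scarcest in WT, and the part of counting error in their spans was not tested.

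**Figure D2:**
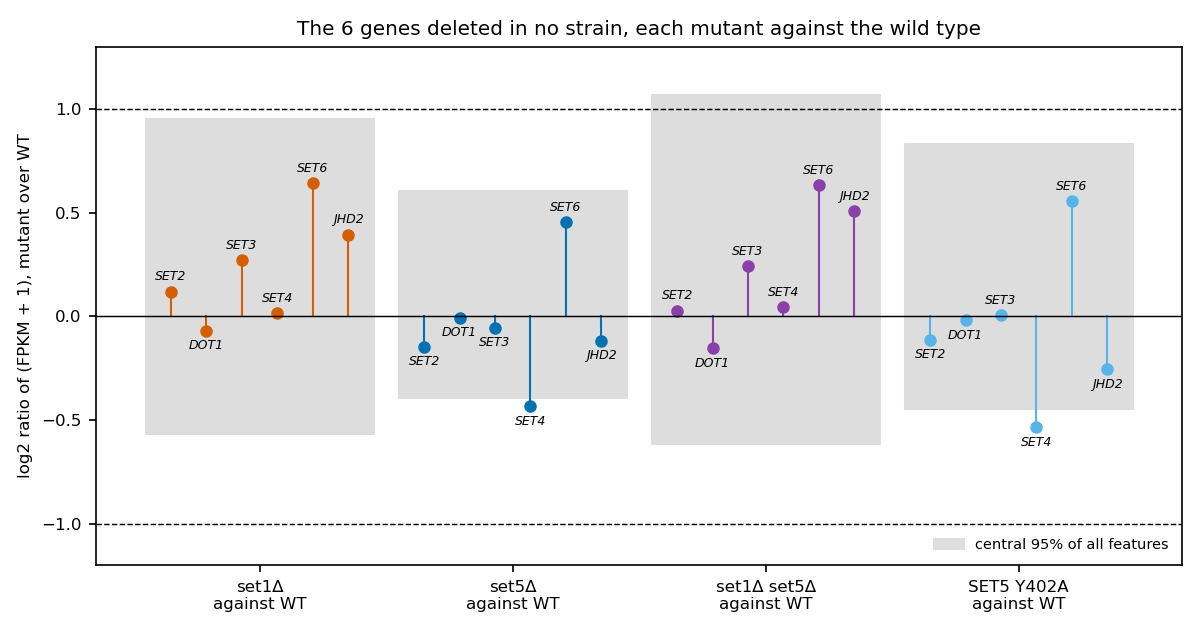
log2 ratio of (FPKM + 1) of each mutant over WT (vertical axis) for the 6 genes deleted in no strain. Grey blocks span the central 95% of all 6541 features and dashed lines mark 2-fold. SET4 falls below the grey block in set5∆ (-0.43) and SET5 Y402A (-0.54), and every other point lies inside.

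JHD2, the H3K4 demethylase gene, was highest where SET1 was absent. It stood at 10.6 FPKM in set1∆, 7.16 in set5∆, 11.6 in set1∆ set5∆ and 6.42 in SET5 Y402A, against 7.86 in WT. The strains without SET1 thus held the highest values, and they did not overlap the 3 strains with SET1. Of all features tested, 31.3% had both strains without SET1 above the other 3 and 31.4% had both below, so the separation itself is common in the table. In plain FPKM the excess was 35.5% in set1∆ over WT and 61.8% in set1∆ set5∆ over set5∆, comparisons that share no strain. The log2 ratios were 0.39 and 0.63, and 8.62% of all features were at least 0.39 higher in both. With quantile-normalized values the ratios shrank to 0.20 and 0.40. In the strains with altered or absent Set5 and intact SET1 the log2 ratios to WT were -0.26 in SET5 Y402A and -0.12 in set5∆, inside the central 95% of features.

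ILM1 follows JHD2 on the same strand, and it ran the other way. It stood at 117 FPKM in set1∆, 171 in set5∆, 101 in set1∆ set5∆ and 169.6 in SET5 Y402A, against 158 in WT. DMO1, which starts divergently from JHD2, was listed at 0 in WT and stayed below 1 FPKM in every strain.

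JHD2 belongs to the JmjC demethylase family, which also holds JHD1 and RPH1, demethylases of H3K36, and GIS1, the paralogue of RPH1, as well as ECM5. None of the 5 genes passed 2-fold in any comparison. In set1∆ 4 of 5 were above WT with a median log2 ratio of 0.18, and in set1∆ set5∆ 5 of 5 were above WT with a median of 0.21. All features had medians of -0.00 and 0.01, and features of 5 to 50 FPKM, the level of these genes, had 0.06 and 0.08. Both comparisons use the same WT value. JHD2 was the highest gene of the family in both (0.39 and 0.51) and GIS1 the lowest (-0.03 and 0.08). RPH1 stood next, at 37.4 FPKM in set1∆ and 43.0 in set1∆ set5∆, against 31.2 in WT. In set5∆ and SET5 Y402A the extremes exchanged places, with GIS1 highest (0.17 and 0.26) and JHD2 lowest (-0.12 and -0.26), and medians of -0.05 and -0.07. In the double deletion over set5∆, the family median was 0.29, with 4 of 5 above 0 and GIS1 at -0.09.

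SET3, whose protein reads H3K4 methylation within its deacetylase complex, was also higher where SET1 was absent. It stood at 23.0 FPKM in set1∆, 18.1 in set5∆, 22.5 in set1∆ set5∆ and 18.9 in SET5 Y402A, against 18.8 in WT. The strains without SET1 lay above the 3 with it, as in the 31.3% of features given for JHD2. The log2 ratio was 0.27 in set1∆ over WT and 0.30 in set1∆ set5∆ over set5∆, and 13.6% of features were at least 0.27 higher in both. Differences of this size were thus common in the table. Neither neighbour followed it, since SAP190 spanned 43.2 to 46.1 FPKM and GMH1 was lower in set1∆ (55.7 FPKM) than in WT (64.9 FPKM).

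Of the 7 genes of the Set3 complex, 0 passed 2-fold in any comparison. The median log2 ratio to WT was -0.04 in set1∆, 0.07 in set5∆, -0.06 in set1∆ set5∆ and 0.01 in SET5 Y402A. SET3 was the highest member in set1∆ and in set1∆ set5∆ (0.24), and CPR1, the cyclophilin A gene, was the lowest, at -0.25 and -0.27. In set5∆ the extremes were the scaffold gene SNT1 (0.10) and the deacetylase gene HOS2 (-0.15), and in SET5 Y402A they were HOS4 (0.18) and HOS2 (-0.26).

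SET4, the paralogue of SET3, had a different profile. It stood at 9.51 FPKM in set1∆, 6.70 in set5∆, 9.72 in set1∆ set5∆ and 6.17 in SET5 Y402A, against 9.40 in WT. The strains that have SET1 and lack intact Set5 thus stood apart below the other 3, which lay within 0.33 FPKM of each other. Of all features, 19.98% had set5∆ and SET5 Y402A below the other 3 strains. In plain FPKM SET4 was 28.7% lower in set5∆ and 34.3% lower in SET5 Y402A than in WT. The log2 ratios of -0.43 and -0.54 had 2.14% and 1.59% of all features below them, and SET4 was the only one of the 6 genes outside the central 95% of features in any comparison with WT. Both comparisons use the same WT value. In the double deletion over set1∆, where SET5 is lost without SET1, the log2 ratio was 0.03. SET4 is scarce, so the differences of set5∆ and SET5 Y402A from WT amount to 2.70 and 3.22 FPKM. With quantile-normalized values the other mutants lay below WT too, at -0.16 in set1∆ and -0.18 in set1∆ set5∆. The ratios of set5∆ and SET5 Y402A to WT were then -0.41 and -0.55.

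The ratio of the paralogues was above that of WT in every mutant, also in those where SET4 was near its WT level and SET3 was higher. SET3 exceeded SET4 2.41-fold in FPKM in set1∆, 2.70-fold in set5∆, 2.31-fold in set1∆ set5∆ and 3.07-fold in SET5 Y402A, against 2.004-fold in WT. All of these comparisons rest on the same WT values of SET3 and SET4, and how common such a pattern is among gene pairs was not tested. Every 50-base stretch of either gene occurs once in the RefSeq genome as an exact match, as was true of all 7 genes. How the reads of the paralogues were assigned was not tested. The gene before SET4, the meiotic kinase gene IME2, stood at 4.81 FPKM in set1∆, 4.98 in set5∆, 5.23 in set1∆ set5∆ and 7.39 in SET5 Y402A, against 3.79 in WT. It was thus highest where SET4 was lowest, in SET5 Y402A. In set5∆, where SET4 was also low, IME2 lay between its levels in set1∆ and set1∆ set5∆, so the 2 genes did not mirror each other. PAM16, which follows SET4, spanned 163 to 183 FPKM.

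SET6 was the gene with the highest ratios to WT. It stood at 19.0 FPKM in set1∆, 16.6 in set5∆, 18.9 in set1∆ set5∆ and 17.8 in SET5 Y402A, against 11.8 in WT. All 4 mutants were above WT, by 40.0% to 60.8%, and all 4 comparisons rest on the same WT value. All 4 mutants were above WT for 19.0% of all features. The log2 ratios were 0.64, 0.45, 0.63 and 0.56 in that order of strains, and between 3.75% and 7.03% of all features had higher ones. Among the mutants themselves the differences were small, with log2 ratios of -0.01 for set1∆ set5∆ over set1∆, 0.18 over set5∆, and 0.10 for SET5 Y402A over set5∆.

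The 3′ end of SET6 overlaps that of ATG29, an autophagy gene on the opposite strand, by 24 bases in the RefSeq annotation. ATG29 stood at 15.3 FPKM in set1∆, 13.7 in set5∆, 14.6 in set1∆ set5∆ and 17.0 in SET5 Y402A, against 8.70 in WT. WT was the lowest strain for both genes, and the log2 ratios of ATG29 to WT lay between 0.60 and 0.89. The library kit named in the labels does not mark strand, so reads of the shared stretch and of longer transcripts that run into the other gene cannot be assigned. MLH3, the mismatch repair gene on the other side, stood at 10.7 FPKM in set1∆, 11.1 in set5∆, 10.8 in set1∆ set5∆ and 15.1 in SET5 Y402A, against 12.3 in WT, and so did not share the low WT value. SET6 was the only one of the 7 genes that overlaps another gene in that annotation.

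**Figure D3:**
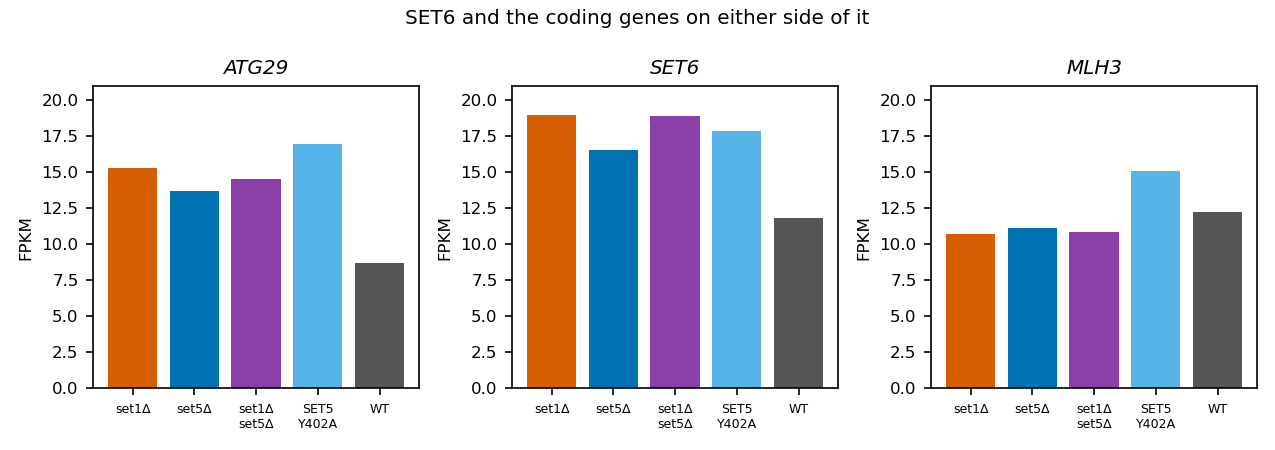
FPKM (vertical axis, starting at 0) of ATG29, SET6 and MLH3 in set1∆, set5∆, set1∆ set5∆, SET5 Y402A and WT, 1 bar per strain with no error bars. WT is the lowest strain for ATG29 (8.70) and SET6 (11.8), whereas MLH3 is highest in SET5 Y402A (15.1).

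SET2, the H3K36 methyltransferase gene, differed little between strains. It stood at 37.0 FPKM in set1∆, 30.7 in set5∆, 34.7 in set1∆ set5∆ and 31.3 in SET5 Y402A, against 34.0 in WT. The lowest values were those of the strains with SET1 and without intact Set5, a pattern shared by the 19.98% of features given for SET4. The log2 ratio of set5∆ to WT was -0.15 and that of set1∆ set5∆ to set1∆ was -0.09, comparisons that share no strain, and 4.39% of features were at least 0.09 lower in both. The second of these turned to 0.00 when the columns were scaled to equal sums. All features then had a median of 0.09 in that comparison, so relative to all features SET2 stayed lower. The feature YJL169W, which lies next to SET2 by systematic number, bears the opposite strand letter and is not in the RefSeq annotation used, stood at 25.1 FPKM in set1∆, 19.9 in set5∆, 24.6 in set1∆ set5∆ and 20.5 in SET5 Y402A, against 21.5 in WT. Whether it overlaps SET2 in the authors' annotation is not known here. The annotated neighbours were ASG7, at 20.7 to 26.4 FPKM, and ERG20, the farnesyl pyrophosphate synthase gene, at 400.1 to 462 FPKM.

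Factors that act with Set2 were read as a list of 13 genes that holds the Rpd3S deacetylase subunits, the CTK kinase of RNA polymerase II and remodelers. None passed 2-fold, and the median log2 ratio to WT was -0.02 in set1∆, -0.03 in set5∆, -0.07 in set1∆ set5∆ and -0.04 in SET5 Y402A. CTK2, the cyclin of the CTK kinase, was the highest in set1∆ (0.43) and set1∆ set5∆ (0.42), and CHD1, a chromatin remodeler gene, the lowest (-0.48 and -0.42). CTK2 stood at 35.2 FPKM in set1∆ and 34.9 in set1∆ set5∆, against 25.8 in WT. CHD1 stood at 17.8 FPKM in set1∆ and 18.6 in set1∆ set5∆, against 25.1 in WT. In set5∆ the list ran from ISW1 (-0.16) to CTK3 (0.03) and in SET5 Y402A from CTK1 (-0.16) to IOC4 (0.21).

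DOT1, the H3K79 methyltransferase gene, had the smallest span of the 6 genes. It stood at 27.1 FPKM in set1∆, 28.3 in set5∆, 25.5 in set1∆ set5∆ and 28.1 in SET5 Y402A, against 28.5 in WT. The lowest strain was the double deletion, 10.5% below WT in plain FPKM with a log2 ratio of -0.15, which turned to 0.04 with columns scaled to equal sums. That scaling moved the median of all features by 0.20 in this comparison, so relative to all features DOT1 stayed lower. LRS4, which precedes DOT1 on the same strand, spanned 18.6 to 21.1 FPKM. APT2, which ends toward it, stood at 84.8 FPKM in set1∆, 109 in set5∆, 87.1 in set1∆ set5∆ and 87.4 in SET5 Y402A, against 113 in WT.

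The 11 genes of the Dot1 list, which adds the enzymes that attach ubiquitin to histone H2B or remove it and the Paf1 complex, also had none past 2-fold. Ubiquitin on H2B is required for full methylation by Dot1 and by Set1. The median log2 ratio to WT was -0.06 in set1∆, -0.05 in set5∆, -0.10 in set1∆ set5∆ and -0.02 in SET5 Y402A. LEO1, a Paf1 complex gene, was the lowest in set1∆ (-0.40) and set1∆ set5∆ (-0.44), at 99.1 and 96.8 FPKM, against 131 FPKM in WT. LGE1, a partner of the ubiquitin ligase Bre1, was the highest (0.19 and 0.25). In set5∆ the list ran from BRE1 (-0.11) to RAD6 (0.11) and in SET5 Y402A from UBP10 (-0.17) to CTR9 (0.11).

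**Figure D4:**
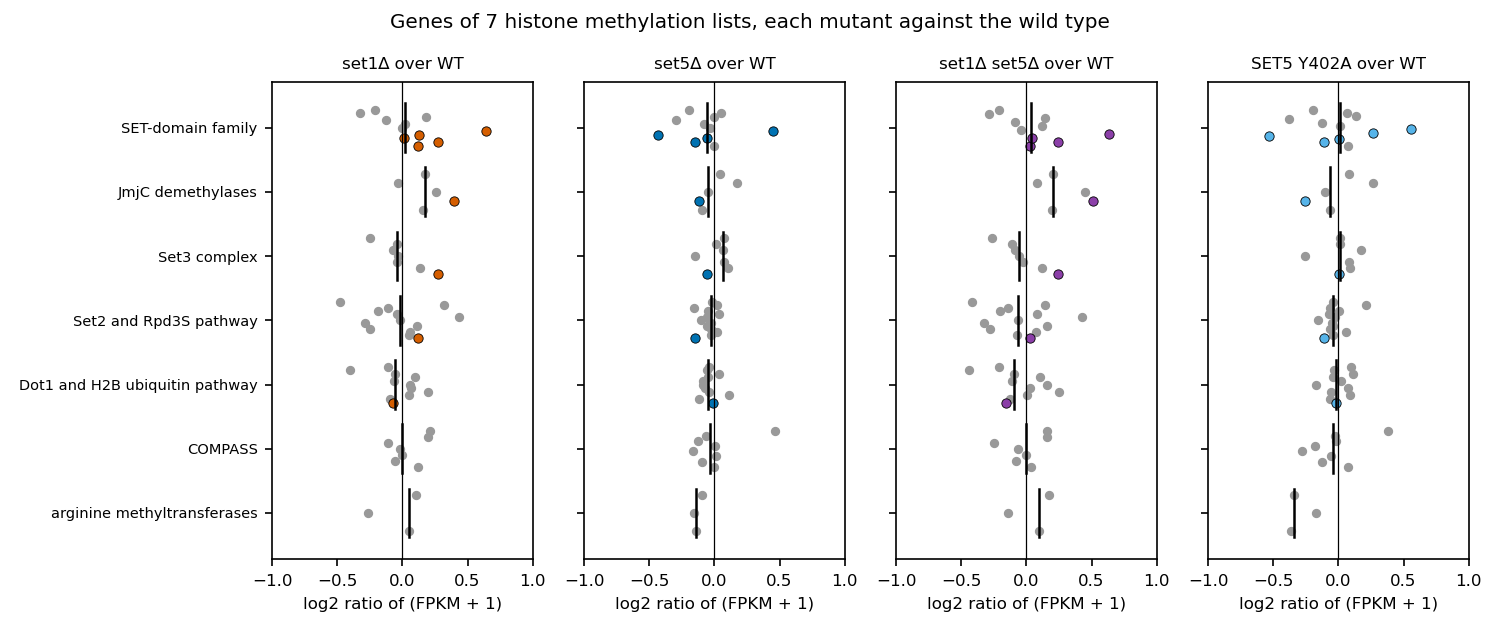
log2 ratio of (FPKM + 1) over WT (horizontal axis) for the genes of 7 lists in each mutant. Coloured points are the genes described singly, grey points the other list genes and black bars the list medians, and genes are left out in strains that lack them. No point passes 2-fold, and the JmjC median is 0.18 in set1∆ and 0.21 in set1∆ set5∆.

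Among all 12 SET-domain genes, which adds SET1, the ribosomal protein methyltransferases RKM1 to RKM4, CTM1 for cytochrome c and EFM1 for elongation factor 1A, none passed 2-fold in a strain that carries it. The median log2 ratio to WT was 0.02 in set1∆, -0.05 in set5∆, 0.04 in set1∆ set5∆ and 0.01 in SET5 Y402A. SET6 was the highest in every mutant. The lowest was CTM1 in set1∆ (-0.32) and set1∆ set5∆ (-0.29), and SET4 in set5∆ and SET5 Y402A. CTM1 stood at 8.62 FPKM in set1∆ and 8.87 in set1∆ set5∆, against 11.1 in WT. The genes of COMPASS, in which Set1 works, had medians between -0.04 and -0.00 in the 4 mutants against WT, with SHG1 the highest in each (0.16 to 0.47). The lowest were SDC1 in set1∆ (-0.11) and set1∆ set5∆ (-0.25), and SWD2 in set5∆ (-0.16) and SET5 Y402A (-0.28).

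The arginine methyltransferases form a separate enzyme family, given here for comparison. HMT1, the main one in yeast, stood at 280.2 FPKM in set1∆, 246 in set5∆, 289.7 in set1∆ set5∆ and 210.0 in SET5 Y402A, against 271 in WT. RMT2, which modifies a ribosomal protein, stood at 121 FPKM in SET5 Y402A, against 154 in WT. All 3 genes, HSL7 being the other, were below WT in SET5 Y402A, with a median log2 ratio of -0.34 and values from -0.37 (HMT1) to -0.17 (HSL7). In set5∆ all 3 were below WT too, from -0.16 (HSL7) to -0.09 (RMT2), with a median of -0.14. All features had medians of -0.01 in SET5 Y402A and 0.00 in set5∆, and both comparisons use the same WT value. In set1∆ and set1∆ set5∆ RMT2 was the highest (0.11 and 0.18) and HSL7 the lowest (-0.26 and -0.14), with medians of 0.05 and 0.10.

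Losing SET1 was compared in both backgrounds, over WT and over set5∆, since these comparisons share no strain. Each of the 6 genes had the same sign in both, as did 78.96% of all features, so this was the common case. The ratios were 0.12 and 0.17 for SET2, -0.07 and -0.15 for DOT1, 0.27 and 0.30 for SET3, 0.02 and 0.48 for SET4, 0.64 and 0.18 for SET6, and 0.39 and 0.63 for JHD2. Those of SET2, DOT1 and SET3 thus differed by less than 0.1 between backgrounds, and those of SET4 and SET6 by about 0.46. With equal column sums DOT1 turned positive in both, at 0.03 and 0.08, where all features had medians of 0.10 and 0.23. With quantile-normalized values SET4 turned to -0.16 over WT and its ratio over set5∆ shrank to 0.23. Losing SET5 was compared over WT and over set1∆ in the same way. SET2, DOT1 and SET3 were lower in both, by at most 0.15 on the log2 scale. With equal column sums their ratios over set1∆ turned to 0.00, 0.01 and 0.06, where all features had a median of 0.09. Relative to all features these genes thus stayed lower. By contrast, SET4, SET6 and JHD2 had ratios of opposite sign. The sign was the same in both for 46.9% of all features. Over set1∆ all 6 genes lay between -0.09 and 0.11.

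**Figure D5:**
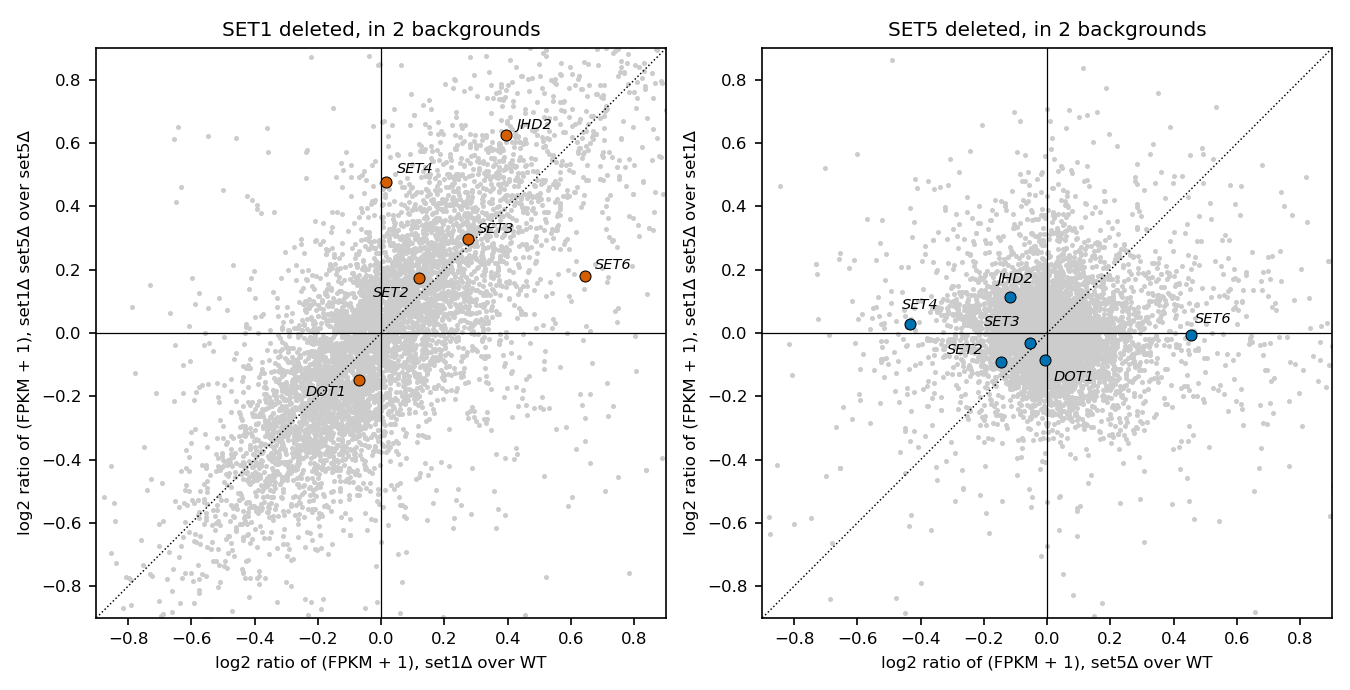
log2 ratio of (FPKM + 1) for loss of SET1 (left panel, set1∆ over WT against set1∆ set5∆ over set5∆) and loss of SET5 (right panel, set5∆ over WT against set1∆ set5∆ over set1∆). Grey points are all features within the axes, coloured points the 6 genes, and the dotted line marks equal ratios. In the left panel SET3 lies near the dotted line (0.27 and 0.30) and JHD2 above it (0.39 and 0.63), and SET4 and SET6 lie far from it near the horizontal axis of the right panel.

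The genes whose ratios to WT were most like those of SET4, SET6 and JHD2 were named, by the root mean square difference of the 4 log2 ratios over coding genes of at least 300 bp and a mean of at least 10 FPKM. SET4 and JHD2 are themselves below that minimum, so genes as scarce as they are could not be named. The closest to JHD2 of 5082 genes were PHO3, a thiamine-repressed acid phosphatase gene (0.02), MET30, an F-box gene of sulfur metabolism (0.03), and AHC1, a gene of the ADA acetyltransferase complex (0.03). PHO3, whose sequence resembles that of PHO5, is far more abundant, at 412 FPKM in set1∆ and 450.3 in set1∆ set5∆, against 318 in WT. The closest to SET4 were MIG3, a transcriptional regulator gene, EMW1, and DHR2, an RNA helicase gene of ribosome synthesis (0.08 each), of which MIG3 stood at 22.3 FPKM in set5∆ and 18.8 in SET5 Y402A, against 28.1 in WT. The closest to SET6 were GGA1, a Golgi sorting adaptor gene (0.08), GOR1, a glyoxylate reductase gene (0.10), and PCL8, a cyclin gene (0.10), while ATG29 was number 40 of 5081 (0.19). GGA1 stood at 20.9 to 24.8 FPKM in the mutants, against 14.9 in WT. A likeness over 4 ratios that share 1 WT value is a description of these columns alone. It also depends on the pseudocount, which shrinks the ratios of scarce genes most. With none, JHD2 had log2 ratios to WT of 0.44 in set1∆ and 0.56 in set1∆ set5∆, and the ranking was not repeated without it.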

How the data were processed

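The sources were the labels and 1 table of the whole series with 1 column per strain, which the authors deposited with no unit in its header. The deposited values were taken as the authors' FPKM, since they are decimals and each column sums to more than CPM or TPM allow. Per the submitters' processing notes, the tools included Cufflinks 2.0.2 with Cuffdiff, TopHat2 2.0.5, R 2.15.1 and FastQC, in an order that is not stated. Genome build, annotation, the way replicates were combined and any scaling across strains were not given in the sources used. Libraries were made from 8 µg of total RNA with the Illumina TruSeq RNA v2 kit, per the labels' protocols. The number of columns not used was 0.

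From the deposited FPKM, log2 ratios of (FPKM + 1) were computed for 8 comparisons, the last being the ratio of set1∆ set5∆ to WT less those of set1∆ and of set5∆. The pseudocount understates differences of scarce transcripts. Features with a mean under 1 FPKM were left out of all counts. Past 2-fold means a log2 ratio of at least 1 or at most -1. An exact 0 can be a failed estimate, and 117 features had one in at least 1 strain. Names, neighbours and overlaps come from RefSeq assembly R64, whose table matched 5934 features by locus tag. The annotation may differ from the authors', so no coordinates or sequences are printed. The members and lists were chosen with earlier results of these data known. The lists were 7 groups of histone methylation genes, and the text names the highest and lowest of each per mutant, setting aside a gene in strains that lack it, and every gene next to a member on the chromosome. YJL169W was named after its values were seen. Genes most like a member were sought for members spanning at least 0.5 on the log2 scale. Alternatives were other pseudocounts, scalings and filters. The counting was tested on simulated data. Python 3.11.15, numpy 2.4.6 and pandas 2.3.3 were used.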

Additional observations from a re-analysis of the deposited data

Results flagged for a closer look

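For 3 genes the loss of SET5 went with ratios of opposite sign in the strains with and without SET1, each from 1 value per strain, and the difference was not tested. The sign was the same in both for 46.9% of all features, so opposite signs were common in the table. For SET4 and SET6 the ratio over set1∆ was close to 0, so its sign carries little weight. SET4 had a log2 ratio of 0.03 in set1∆ set5∆ over set1∆ and of -0.43 in set5∆ over WT, a difference of 0.46, and 3.35% of all features had a larger one. With quantile-normalized values the first ratio was -0.02 and the signs no longer differed. SET6 had -0.01 in set1∆ set5∆ over set1∆ and 0.45 in set5∆ over WT, a difference of -0.46, with 4.65% of features below it. With equal column sums the first was 0.08 and the signs no longer differed. All features then had a median of 0.09 in that comparison, so the first ratio of SET6 stayed just below that median. JHD2 had 0.11 in set1∆ set5∆ over set1∆ and -0.12 in set5∆ over WT, a difference of 0.23, with 12.2% of features above it.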

How the results depend on the processing

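No paired analysis was possible because the table gives 1 column per strain, and for the same reason no replicate could be left out. Of 50 ratios and interactions over strains that carry the gene, 0 changed sign with a pseudocount of 0.1, with one of 5 or after median centring, 5 did with quantile-normalized values and 9 with equal column sums. The largest ratio that changed sign was 0.15 in size, and none of the 50 reached 2-fold under these 5 settings, the highest size being 0.84. The fold of the deleted gene depends on the pseudocount. For SET5 in set5∆ over WT, the log2 ratio was -7.81 with 0.1, -2.97 with 5 and -9.31 with none. In set1∆ set5∆ over WT the values were -8.21, -2.98 and -11.01, in set1∆ set5∆ over set1∆ -8.34, -3.09 and -11.14, and in SET5 Y402A over set5∆ 8.08, 3.21 and 9.58. In set1∆ set5∆ over set5∆, which both lack SET5, the ratio with none was -1.70 and has no meaning as a fold. The settings with no pseudocount and with features of 5 to 50 FPKM were chosen after seeing the data. Over features of at least 10 FPKM the share past 2-fold fell to 1.52% in set1∆ against WT (2.86% over all), 1.88% in set1∆ set5∆ against WT (3.35%) and 2.24% in set1∆ set5∆ against set5∆ (3.93%). No list gained a gene past 2-fold in the comparisons with WT under any setting run. Equal column sums moved the median of all features by 0.10 in set1∆ and 0.20 in set1∆ set5∆ against WT. The move was 0.09 in set1∆ set5∆ against set1∆, 0.23 in set1∆ set5∆ against set5∆ and 0.13 in the interaction. Depth is unknown, so no limit of detection is given.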
